A study of Mus musculus with 1536 samples.

Results

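The angiopoietin and TIE signalling genes were followed through single lymphatic endothelial cells (LECs) of the adult mouse nasopharyngeal mucosa. The 7 genes *Angpt1*, *Angpt2*, *Angptl4*, *Tek*, *Tie1*, *Ptprb* and *Svep1* were chosen by symbol, and all 7 have a row among the 23168 genes of the matrix. The cells came from C57BL/6 mice of both sexes aged 10–12 weeks, for which no treatment or transgene is named, and were sorted as CD31+ PDPN+ before Smart-seq3, a plate method that reads full-length cDNA of single cells. Mucosa of 30 mice was pooled and no cell is tied to an animal, so the 840 cells with values, out of 1540 wells listed, count as 1 sample, and cells were not tested against each other. Here and below, numbers of cells over 100 are rounded to the nearest 10. Depth ran from 7433 to 3524358 reads in a cell (median 350746). Levels are given as the mean of reads per 10000 reads of a cell, SDs are over cells, and intervals of shares are exact (Clopper–Pearson) at 95% and cover counting error only.

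Most lymphatic genes were found in nearly all cells. Reads of *Prox1* were found in 97.7% of cells, of *Flt4* (the receptor VEGFR3) in 99.8% and of *Mmrn1* in 100%. *Pdpn* was found in 95.2%, and *Lyve1*, the lowest of 8 lymphatic identity genes, in 86.8%. The leukocyte genes *Ptprc* and *Cd3e* were found in 0 cells, which allows a share of up to 0.356%. *Epcam* and *Pdgfra* were each in 0.475% of cells and *Pdgfrb*, a mural cell gene, in 1.07%. Other marker genes were more frequent, with *Lyz2* (immune) in 7.96% of cells, *Dcn* (fibroblast) in 12.4% and *Acta2* (mural) in 2.49%. At least 1 gene of an immune list was found in 9.14% of cells, of a fibroblast list in 15.6% and of a mural list in 6.29%. Cells with 2 or more genes of these lists numbered 3, 10 and 2. Genes of a blood endothelial list were common, with at least 1 in 98.5% of cells, *Emcn* in 94.2% and *Plvap* in 77.8%. Most cells held 2 or more genes of that list.

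Angiopoietins are secreted ligands of the receptor tyrosine kinase TIE2, which *Tek* encodes. ANGPT1, made mainly by mural and mesenchymal cells, activates TIE2, whereas ANGPT2, made by endothelial cells, activates or blocks it depending on the setting and is needed for normal lymphatic vessels. TIE1 is an endothelial co-receptor that forms complexes with TIE2, VE-PTP (*Ptprb*) removes phosphate from TIE2, and the matrix protein SVEP1 binds TIE1. TIE2 signals through PI3K and AKT, which hold the transcription factor FOXO1 out of the nucleus. ANGPTL4 resembles angiopoietins in sequence but does not bind TIE2, and inhibits lipoprotein lipase.

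Across all cells *Tie1* was found nearly everywhere, *Tek* and *Angpt2* in most cells, and *Angpt1* in few. *Angpt2* (ENSMUSG00000031465, GRCm38 chromosome 8, 18690263 to 18741562, minus strand) was found in 700 cells (82.5%, 79.8 to 85%), with a mean of 7.40 ± 11.7 (SD) reads per 10000, a median of 2.64 and a highest cell at 87.7. Exons of *Mcph1* lie within its span but overlap no exon of *Angpt2*. *Angpt1* (chromosome 15, 42424723 to 42676977, minus strand) was found in 20 cells (2.38%, 1.46 to 3.64%), with a mean of 0.0150 ± 0.129.

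Of the receptors, *Tie1* (chromosome 4, 118471191 to 118490061, minus strand) was found in all but 6 cells (99.3%, 98.5 to 99.7%), with a mean of 8.19 ± 5.85 and a median of 6.89. *Tek* (chromosome 4, 94739289 to 94874976, plus strand) was found in 690 cells (81.9%, 79.2 to 84.5%), with a mean of 3.08 ± 3.92 and a median of 1.77. Both receptors were found together in 81.8% of cells. *Tie1* without *Tek* was seen in 17.5% of cells and *Tek* without *Tie1* in 1 cell.

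*Ptprb*, the phosphatase (chromosome 10, 116275523 to 116389535, plus strand), was found in 790 cells (93.5%, 91.6 to 95%), with a mean of 2.84 ± 2.93. *Angptl4* (chromosome 17, 33773750 to 33781830, minus strand) was found in 120 cells (14.3%, 12 to 16.8%), with a mean of 0.281 ± 1.45. *Svep1* (chromosome 4, 58042442 to 58206859, minus strand) had 2 reads in 1 cell of 1523956 reads and none elsewhere. Exons of the opposite-strand genes *Gm17473* and *Gm26889* overlap exons of *Angpt1* and *Svep1*, and whether counting used strand is not given in the sources used here.

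Per kilobase of annotated exon, which allows levels of different genes to be set side by side, the mean was 2.0 reads per 10000 per kb for *Angpt2*, 1.66 for *Tie1*, 0.653 for *Tek*, 0.213 for *Ptprb*, 0.0794 for *Angptl4* and 0.00288 for *Angpt1*. The order of the first pair turns with the measure. The median cell had 1.40 reads per 10000 per kb of *Tie1* and 0.715 of *Angpt2*, ahead of 0.376 of *Tek* and 0.156 of *Ptprb*. Neighbours in this order from *Angpt2* to *Ptprb* overlapped broadly over cells.

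*Angpt2* was the most unevenly spread of the 4 members found in most cells. The 84 cells with the highest *Angpt2* held 48.9% of its summed level, against 39.9% for *Tek*, 32.7% for *Ptprb* and 25.8% for *Tie1*. For *Angptl4* the top 84 cells held 99.2%, since it was found in few cells. Shares of cells with a read also moved with depth. *Tek* was found in 68.7% of the 25.1% of cells with the fewest reads and in 92.4% of the 25.1% with the most, and the shares for *Angpt2* were 73.5% and 92.4%.

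The cells were then divided at a *Stab2* value of 1, on the deposited scale of the natural log of 1 plus reads per 10000. *Stab2* encodes a scavenger receptor for hyaluronan found on LECs, and 260 cells (31.2%) lay above the cut and 580 did not. The cut makes a range rather than a cell type, and 52 cells lay between 0.8 and 1.2. Median reads per cell were 368560 above the cut and 350281 in the rest. Genes of the fibroblast list were found in 17.1% of cells above the cut and 14.9% of the rest, of the mural list in 6.46% and 6.22%, of the immune list in 8.75% and 9.33%, of the Schwann cell list in 9.13% and 5.87% and of the epithelial list in 0.380% and 1.04%. A gene was called higher or lower where the ratio of its means was at least 1.5 in that direction, among genes found in at least 10% of all cells, which 5 of the 7 members passed. Of 9655 genes, 10.6% were called higher in cells with *Stab2* > 1 and 8.05% lower, and of the 5 members 1 was called higher, 1 lower and 3 neither. Of 21 tissue dissociation genes 0 were called higher and 2 lower, *Atf3* at a ratio of 0.634 and *Ier3* at 0.659.

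*Angpt2* was higher in cells with *Stab2* > 1. Its mean was 13.4 ± 15.4 (SD) reads per 10000 there and 4.66 ± 8.25 (SD) in the rest, a ratio of 2.88. The medians were 7.87 and 1.41, and the 90th percentiles 34.2 and 13.5. The ranges overlapped, with the highest cell at 87.7 above the cut and at 78.3 in the rest. *Angpt2* was found in 91.3% (87.2 to 94.4%) and 78.6% (75 to 81.9%) of cells, and after every cell was thinned to 20000 reads, which left out 51 cells, in 82.1% and 61.7%. Of the 84 cells highest in *Angpt2*, 59 had *Stab2* > 1. *Angpt2* was called higher under all 17 settings run, at ratios from 1.86 to 3.73. The lowest came with the cut moved to any *Stab2* read.

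*Tek* ran the other way. Its mean was 1.89 ± 2.52 in cells with *Stab2* > 1 and 3.62 ± 4.30 in the rest, a ratio of 0.521, with medians of 0.868 and 2.27. It was found in 76% (70.4 to 81.1%) and 84.6% (81.4 to 87.5%) of cells, and in 61.4% and 72.1% after thinning. The highest cell reached 14.3 above the cut and 27.4 in the rest, and 8 of the 84 cells highest in *Tek* had *Stab2* > 1.

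The *Tek* difference was not alike in all cells. In 170 cells with *Xist* and no Y chromosome gene the means were 1.90 (62 cells) with *Stab2* > 1 and 2.17 (110 cells) in the rest, a ratio of 0.875, which is no call. In 480 cells with a Y chromosome gene and no *Xist* they were 1.94 (150 cells) and 4.09 (330 cells), a ratio of 0.473. The gap between these sets of cells thus lay in the cells without high *Stab2*. Median reads in those cells were 322743 and 443641, and the mean natural log value of a list of tissue dissociation genes was 1.36 and 1.67. The part of depth and dissociation in this was not tested, and the difference between the ratios has no test because the cells are 1 sample. *Angpt2* was called higher in both sets, at ratios of 3.73 and 3.0. The *Tek* call was also lost with the cut at any *Stab2* read (ratio 0.748) and among cells with a *Lyve1* value above 1 (0.678).

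*Tie1* was level across the cut, with means of 8.07 ± 5.51 and 8.24 ± 6.01, a ratio of 0.980. Its ratios lay between 0.907 and 1.0 over the settings run. *Ptprb* had means of 3.31 ± 2.95 and 2.63 ± 2.90, a ratio of 1.26 that falls short of a call. *Angptl4* had means of 0.239 ± 1.44 and 0.300 ± 1.45 and was found in 13.3% (9.45 to 18%) and 14.7% (11.9 to 17.8%) of cells. Its ratio of 0.797 has no steady direction, since summed reads gave 0.300 and a cut at 2 gave 1.31. *Angpt1* was found in 6 cells with *Stab2* > 1 (2.28%) and 14 of the rest (2.42%), and *Svep1* in 0 cells with *Stab2* > 1, which allows a share of up to 1.14%.

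**Figure D1:**
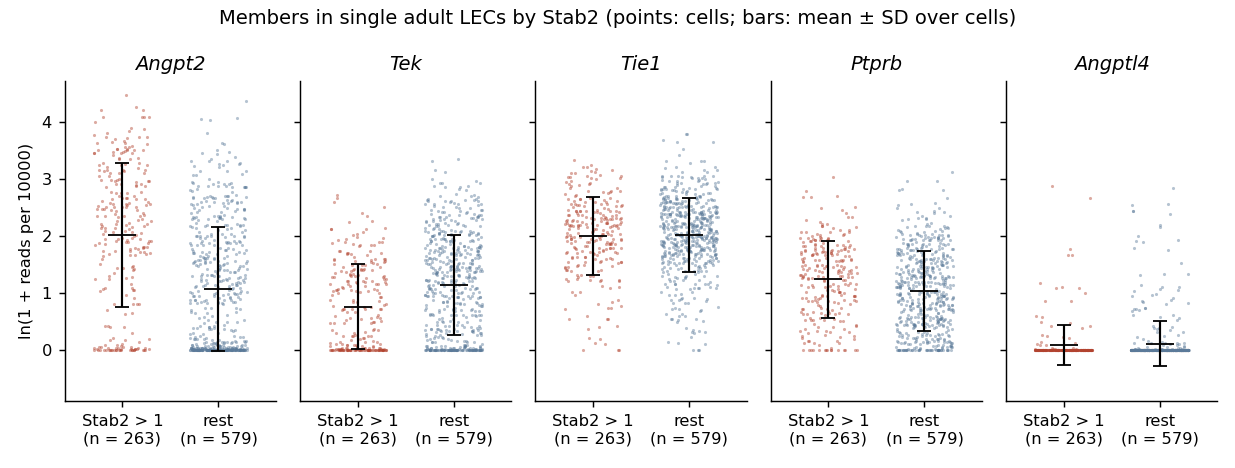
Natural log of 1 plus reads per 10000 for the 5 members found in over 10% of cells, with 1 point for each cell, on the left cells with *Stab2* > 1 and on the right the rest. Bars give the mean ± SD over cells. *Angpt2* averaged 2.02 against 1.07 and *Tek* 0.76 against 1.14, while *Tie1* stood at 2.0 and 2.03.

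The means were also taken over 5 sets of cells ordered by their *Stab2* value. Mean *Angpt2* was 4.94 in the 360 cells without a *Stab2* read and 4.22 in the 220 cells with a value over 0 to 1, then 11.7, 15.3 and 12.8 in cells over 1 to 2, over 2 to 3 and over 3. Median *Angpt2* in the sets over 1 to 2 and over 2 to 3 was 5.79 and 10.4. Mean *Tek* was 3.6, 3.64, 1.92, 1.85 and 1.90 in the same order as for *Angpt2*. The median *Stab2* value of the cells over 0 to 1 was 0.0827. The last set held only 32 cells, and within each set the SD of *Angpt2* was larger than its mean.

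**Figure D2:**
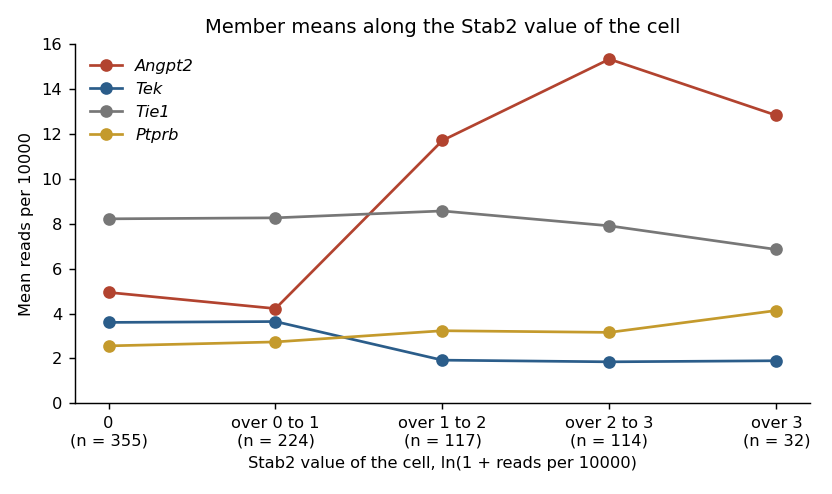
Mean reads per 10000 of *Angpt2*, *Tek*, *Tie1* and *Ptprb* (vertical axis) in 5 sets of cells ordered by their *Stab2* value (horizontal axis, number of cells in brackets). *Angpt2* stands at 4.94 and 4.22 in the sets up to a value of 1 and between 11.7 and 15.3 in those above it, and *Tek* at 3.6 and 3.64 and then between 1.85 and 1.92.

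The remaining cells were divided by markers of other LEC subsets, in turn *Cldn11* (a valve gene), *Fndc1* and *Lyve1*, each at a value above 1. Mean *Angpt2* was 6.43 ± 11.1 in 130 cells with *Cldn11*, 3.70 ± 5.78 in 110 with *Fndc1*, 5.14 ± 7.77 in 140 with *Lyve1* and 3.71 ± 7.34 in 200 cells with none. Each of these means lay below the 13.4 of cells with *Stab2* > 1. Mean *Tek* was 4.55 ± 4.71 with *Fndc1*, 4.08 ± 4.59 with none, 3.26 ± 3.64 with *Cldn11* and 2.56 ± 3.87 with *Lyve1*. *Tek* was found in 91.9% (85.2 to 96.2%) of *Fndc1* cells and in 77.1% (69.3 to 83.8%) of *Lyve1* cells, near the 76% of cells with *Stab2* > 1. *Ptprb* was lowest in the *Fndc1* cells, at 1.79 ± 1.90 against 2.54 to 3.31 elsewhere. *Tie1* kept between 7.34 and 9.10 in all 5 ranges. Median reads ranged from 219733 in *Lyve1* cells to 524161 in *Fndc1* cells, and 51 cells exceeded 1 for more than 1 of *Stab2*, *Cldn11* and *Fndc1*.

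*Lyve1*, a hyaluronan receptor of capillary LECs, split the *Angpt2* level further. Cells above 1 for both *Stab2* and *Lyve1* (150 cells) had a mean *Angpt2* of 15.8 ± 16.1 and those with *Stab2* alone (110 cells) 10.3 ± 13.9. Cells with *Lyve1* alone (260 cells) had 5.23 ± 7.64 and cells with neither (320 cells) 4.21 ± 8.69. For *Tek* the same sets had 1.98, 1.77, 2.91 and 4.19.

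**Figure D3:**
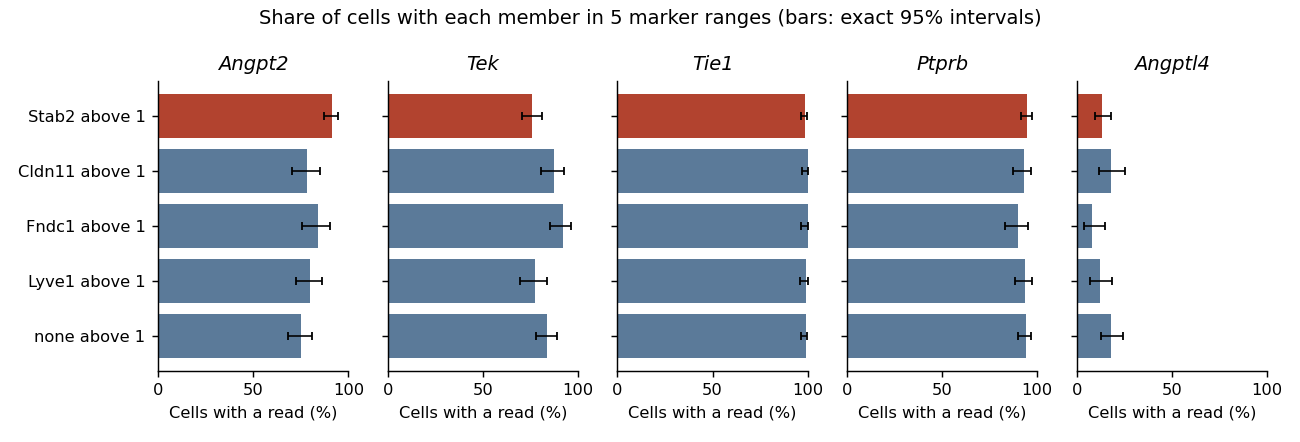
Percent of cells with at least 1 read (horizontal axis) of 5 members in cells above 1 for *Stab2*, then for *Cldn11*, *Fndc1*, *Lyve1* or none, with exact 95% intervals as bars. *Angpt2* is found in 91.3% of the first range and 74.9 to 83.8% of the others, whereas *Tie1* is in at least 98.9% of each.

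Transcripts of ligand and receptor were often present in the same cell, as each was found in most cells. *Angpt2* and *Tek* were both found in 570 cells (67.8%, 64.5 to 71%), *Angpt2* alone in 14.7%, *Tek* alone in 14.1% and neither in 3.33%. Since *Angpt2* was found in 82.5% and *Tek* in 81.9% of cells, many cells with both follow from these shares alone. No link between the genes is read from the joint share. At values above 1 the balance differed by side of the *Stab2* cut. With *Stab2* > 1, 44.1% (38 to 50.3%) of cells passed for *Angpt2* only and 9.51% (6.25 to 13.7%) for *Tek* only, whereas in the rest these shares were 23.7% (20.3 to 27.3%) and 31.6% (27.8 to 35.6%). Both passed in 31.9% and 23.5%. Across the 840 cells, which share preparation and differ in depth, Pearson's r of the natural log values was -0.16 for *Angpt2* with *Tek*, too weak to read as a relation, and between -0.01 and 0.08 for the pairs among *Tek*, *Tie1* and *Ptprb*.

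The few *Angpt1* reads were not spread evenly. Of the 20 cells, the highest level was 1.82 and the lowest 0.00591 reads per 10000. These cells were deeper than the others, with median reads of 798480 against 340160. Genes of a fibroblast list (*Pdgfra*, *Col1a1*, *Col1a2*, *Dcn* and *Lum*) were found in 4 of the 20 (20%) and in 15.5% of the other 820 cells, and genes of a mural list (*Acta2*, *Pdgfrb*, *Rgs5*, *Myh11* and *Cspg4*) in 5.0% and 6.33%. Summed fibroblast reads averaged 0.0290 per 10000 in *Angpt1* cells and 0.371 in the others, and summed mural reads 0.00184 and 0.0786. The highest of the other cells stood at 132.98 summed fibroblast reads per 10000, and 1 of the cells with *Angpt1* held 2 or more fibroblast genes. The part of these cell types in the *Angpt1* reads was not tested. After thinning to 20000 reads *Angpt1* was found in 1.01% of cells.

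Of 22 genes of adaptors, kinases and effectors of TIE2, 17 passed the detection filter, 0 were called higher and 2 lower, beside 10.6% and 8.05% of all genes tested, and 5 fell short of detection, with a median log2 ratio of -0.01 against 0.05 over all genes tested. Without the detection filter 5 of the list were lower, the added genes being *Grb7*, *Grb14* and *Dok2*, found in 7.96%, 1.90% and 0.831% of cells and named after their values were seen. *Nos3*, the endothelial nitric oxide synthase, was lower at a ratio of 0.184 and was found in 24.3% against 64.2% of cells. *Dok1*, which is of the DOK adaptor family, was lower at 0.602 but was found in only 11.2% of all cells, near the detection filter. The PI3K subunit genes *Pik3ca* and *Pik3r1* had ratios of 1.17 and 1.14, *Akt1* had 1.16, and *Foxo1* had 0.748. Of 10 genes for TIE2 and TIE1 partners and shedding proteases, 9 were tested and only *Mmp14*, a membrane metalloproteinase, was called, at 1.89. Integrin *Itga5* and *Itgav*, which can bind ANGPT2, had 1.35 and 1.34, and *Cdh5*, the endothelial cadherin that associates with VE-PTP, had 1.40.

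Of 14 FOXO1 target genes listed, 11 were tested, 3 were called higher and 2 lower, beside the 10.6% and 8.05% of all genes, with a median log2 ratio of -0.02. *Gadd45a* had a ratio of 1.91, *Bcl2l11*, which encodes the pro-apoptotic BIM, 1.73 and *Fbxo32* 1.68, whereas *Sesn3* had 0.648 and *Bcl6* 0.651. *Bcl2l11* was found in 36.5% of all cells, but the others in only 10.2 to 14.4%, near the detection filter of 10%. *Angpt2*, itself a FOXO1 target in endothelium, was not on this list. The other angiopoietin-like genes were scarce. Only *Angptl2* passed the detection filter, and it was lower in cells with *Stab2* > 1 at a ratio of 0.111, found in 11% and 27.8% of cells.

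Lists around ANGPTL4 split in both directions. *Lpl*, the lipase that ANGPTL4 inhibits, was lower in cells with *Stab2* > 1 (ratio 0.180, found in 14.1% and 27.1%), while *Gpihbp1*, which anchors the lipase to endothelium, was higher (1.85, found in 77.6% and 67.5%). Of 10 PPAR target genes 8 were tested, and the fatty acid uptake gene *Cd36* (3.13) and the carnitine transferase *Cpt1a* (1.62) were higher, *Fabp4* (0.559) and *Acsl1* (0.602) lower. Of 11 hypoxia genes 10 were tested, with *Vegfa* higher (2.38) and the glucose transporter *Slc2a1* lower (0.559). The blood endothelial list gave *Plvap* higher (2.61, found in 92.4% and 71.2%), *Emcn* at 0.751, and its venule gene *Ackr1* in 0.713% and tip cell gene *Esm1* in 0.356% of all cells. The 8 lymphatic identity genes gave 0 calls. Of 11 valve genes 5 were lower (*Foxc2*, a valve transcription factor, at 0.347, *Cldn11* at 0.336, *Efnb2* at 0.472, *Gja4* at 0.524 and *Gata2* at 0.546).

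*Angptl4* was also set against these lists directly, in 120 cells in which it was found at full depth and 670 in which it was not, all thinned to 20000 reads. Of 7714 genes 4.08% were called higher with *Angptl4* and 8.05% lower. Among 8 PPAR targets *Fabp4*, a fatty acid binding protein, was higher (ratio 2.10), and among 9 hypoxia genes *Adm*, the adrenomedullin gene, was higher (1.6), with no other call in either list. *Gpihbp1* was lower (0.661) and none of 7 FOXO1 targets tested was called. Cells with *Angptl4* were deeper, with median reads of 504765 against 388564 before thinning.

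The genes whose values ran most like *Angpt2* over the 840 cells, out of 9655, were *Gm525* (Pearson's r of 0.47), the sodium channel gene *Scn3a* (0.47) and the matrix gene *Thbs1* (0.45), and the most unlike, looked up after these values were seen, were *Igfbp5* (-0.41), *Pkhd1l1* (-0.35) and *Podxl* (-0.35). For *Tek* the most like were *Igfbp5* (0.34), *Podxl* (0.30) and *Nudt4* (0.28), and the most unlike was *Scn3a* (-0.24). *Gm525*, *Thbs1* and *Scn3a* are higher in cells with *Stab2* > 1, at ratios of 11.2, 5.71 and 3.01. *Igfbp5* and *Podxl* are lower there, at 0.0994 and 0.370. The values for *Angpt2* and *Tek* thus share the *Stab2* division with those above. For *Tie1* the first 3 were *Psap*, *Timp2* and *Ctsb*, for *Ptprb* *Rapgef5*, *Zcchc6* and *Fbln2*, and for *Angptl4* *Ttc39a*, *Gm17511* and *BC002163*, at r between 0.16 and 0.20, too weak to read as a likeness. After thinning to 20000 reads the 3 genes most like *Angpt2* held the same places, whereas for *Tek* *Podxl* went from place 2 to 5 and for *Angptl4* *Gm17511* and *BC002163* went to places 14 and 27.

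**Figure D4:**
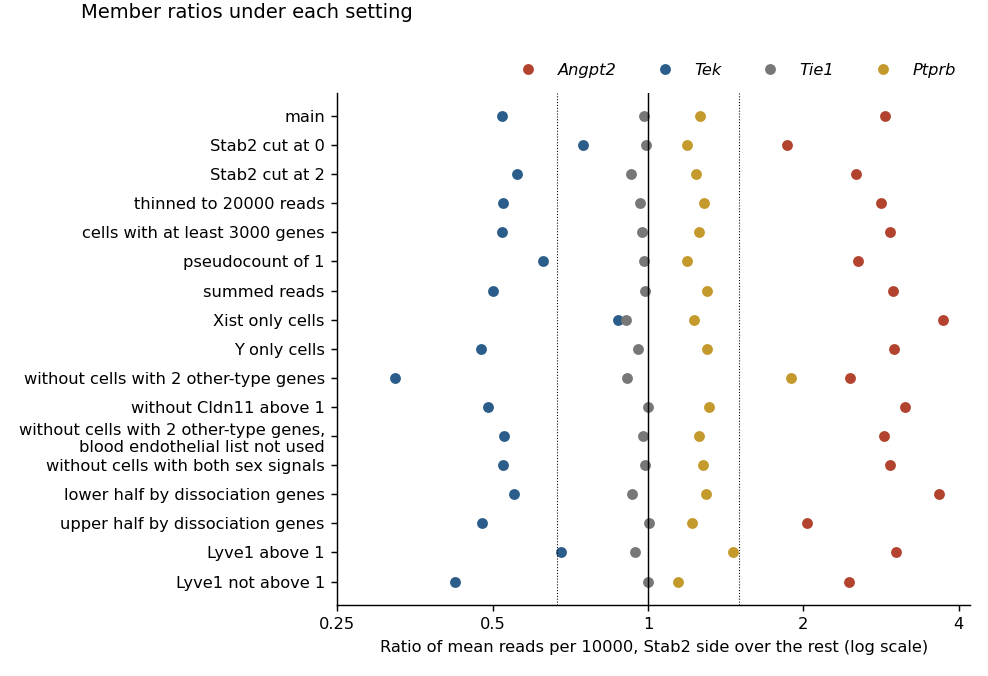
Ratio of mean reads per 10000 in cells with high *Stab2* over the rest (horizontal axis, log scale) for 4 members under each of 17 settings (rows), with the calling thresholds dotted. *Angpt2* lies between 1.86 and 3.73 and *Tie1* between 0.907 and 1.0, while *Tek* lies between 0.323 and 0.875 and crosses its threshold in 3 rows.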

How the data were processed

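Smart-seq3 values of single LECs were analysed as deposited. According to the methods and the submitters' processing notes, STAR alignment to mm10 was followed by featureCounts (Subread), and cells were dropped if they held fewer than 2000 genes or more than 10% mitochondrial reads. Normalization was in Seurat 4.1.0. The deposited unit is a natural log, ln(1 + reads per 10000). The methods say log2, yet the sum of 10000 per cell returned with base e alone. The sources used here do not give annotation, strand or multi-mapping settings. No use of molecular identifiers is stated, so PCR copies are not independent reads.

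Whole reads were recovered for 100% of values above 0 (within 0.01 reads). The cells count as 1 sample, and differences are ratios of means with no test. The members and the gene lists were chosen with earlier results of these data known. A gene was found in a cell at 1 read or more and was tested if found in at least 10% of cells. Genes named were the 7 members, list genes that passed a ratio of 1.5 or that a result turns on, and the 3 genes with the highest Pearson's r to each member found in 10% of cells. Thinning drew 20000 reads from each of 790 cells that reached this depth. For a share of 0 the upper limit from 3 counts is printed. Positions and exon lengths come from GENCODE on GRCm38. The steps were also run on simulated counts with known ratios. Those counts had the same spread setting for all genes. They also held a gene set to a single read in every cell, which fixed the recovery of reads in advance. No result for the members rests on that run. Protein and promoter sequences were not used here. Some results for list genes are not reported here. Python 3.11.15, NumPy 2.4.6, pandas 2.3.3, SciPy 1.17.1 and Matplotlib 3.10.9 were used.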

Additional observations from a re-analysis of the deposited data

How the results depend on the processing

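Of 80 ratios under alternative settings for the 5 members tested, 71 moved by no more than 1.5 times, 9 by more and 0 reversed a call. Only *Angpt2* and *Tek* had a call to reverse. *Angptl4* and *Ptprb*, not called in the main setting, passed a calling threshold in some settings. The *Tek* call was lost, without a move that large, at the cut at any *Stab2* read (0.748) and in cells with *Lyve1* above 1 (0.678). The cut at any *Stab2* read gave 1.86 for *Angpt2* and 0.469 for *Angptl4*, and a cut at 2 gave 1.31 for *Angptl4*. Summed reads gave 0.300 for *Angptl4*. Cells with *Xist* and no Y chromosome gene gave 0.512 for *Angptl4* and 0.875 for *Tek*. Leaving out cells with at least 2 genes of another cell type gave 0.323 for *Tek*, 1.90 for *Ptprb* and 1.90 for *Angptl4*, but left only 27 and 150 cells, since most LECs hold 2 genes of the blood endothelial list. Without that list, a setting chosen after seeing the data as were the *Lyve1*, dissociation and double sex signal settings, 260 and 570 cells stayed and *Tek* was at 0.526.

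Shares of cells depend on what counts as found. At a value above 1 they were 0.119% for *Angpt1*, 56.2% for *Angpt2*, 4.04% for *Angptl4*, 50.8% for *Tek*, 92.4% for *Tie1*, 54.4% for *Ptprb* and 0% for *Svep1*. At 3 or more reads they were 72.1% for *Angpt2*, 10.5% for *Angptl4*, 72.2% for *Tek*, 87.4% for *Ptprb* and 0% for *Svep1*. After thinning they were 1.01% for *Angpt1*, 68% for *Angpt2*, 8.47% for *Angptl4*, 68.8% for *Tek*, 97.9% for *Tie1* and 83.2% for *Ptprb*. In cells with at least 3000 genes they were 85.9% for *Tek*, 99.9% for *Tie1* and 97.3% for *Ptprb*. List counts moved in 10 of 24 alternatives, with a ratio of 2 leaving 0 of the FOXO1 targets called. All 15 correlations of the genes most like a member kept their sign and moved by less than 0.1. No paired analysis was possible because the cells are 1 sample without replicates.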

Other observations

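Member levels were also taken by the sex chromosome transcripts of a cell, which tie no cell to an animal. Mean *Tek* was 2.07 ± 2.45 (SD) reads per 10000 in the 170 cells with *Xist* and no Y chromosome gene and 3.41 ± 4.26 in the 480 with a Y chromosome gene and no *Xist*. For *Ptprb* the means were 2.39 and 3.13, for *Angpt2* 8.15 and 6.98 and for *Tie1* 8.11 and 8.01. Median reads were 290954 and 441014, and the mean natural log value of the dissociation genes was 1.27 and 1.66. Another 52 cells held both signals, with median reads of 757311.

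Over 4 sets of cells of nearly equal size, ordered by the dissociation genes from least to most, mean *Tie1* was 9.52, 8.52, 7.69 and 7.02 and mean *Angpt2* 8.46, 8.58, 6.39 and 6.16. Mean *Tek* was 3.47, 2.75, 3.0 and 3.08. In the cells below and above the median of that order the ratio of *Angpt2* in cells with *Stab2* > 1 over the rest was 3.66 and 2.03, a call in both.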
